A study of Mus musculus with 4 samples.

Results

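The variable genes of the immunoglobulin kappa light chain (Igkv genes) were examined in monocytes sorted from mouse bone marrow. All gene rows whose symbol begins with Igkv were taken, which gave 160 of 31017 rows. GENCODE M21 places all 160 on chromosome 6 of the GRCm38 assembly, annotates 100 as V genes and 60 as V pseudogenes, and their names divide them into 20 families. The series compared wild-type C57BL/6 mice aged 18 months (aged, 2 libraries) with wild-type C57BL/6 mice aged 3 months (young, 2 libraries). All 4 libraries were made from poly(A)-selected RNA of flow-sorted bone marrow monocytes, and all carry atherosclerosis as their disease label. The labels give neither the sort gate nor whether the libraries of an age came from separate mice, so p-values reflect no more than how these libraries scattered, and that scatter may be technical.

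A developing B cell makes its kappa light chain by cutting and joining a V gene to a J gene with the RAG recombinase, and the joined exon is then spliced to the constant gene Igkc. The V gene is therefore a tag of the rearrangement that a B cell and its progeny carry, and a mixed B cell population uses many V genes at once. Monocytes do not rearrange this locus, whereas plasma cells, the antibody-secreting end stage of the B lineage, hold very large amounts of immunoglobulin messenger RNA per cell. In a bulk library, fewer cells of a type and less RNA per cell cannot be told apart.

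A handful of Igkv genes held most of the Igkv counts in each library, and the leading genes of the aged libraries were not those of the young libraries. The sequences below are the ends of the V exons of the 11 leading genes, shown because this stretch differs between the genes and its last bases enter the antigen-binding loop. Each runs 5′ to 3′ on the coding strand, from 30 bases before the conserved cysteine codon to the end of the germline V exon. Capitals mark the cysteine codon and the germline start of the third complementarity-determining region (CDR3). The sequences were read from the GENCODE M21 transcripts (GRCm38), and the position and strand of each gene are given with its values. The 6 genes that led in the aged libraries were:
Igkv15-103: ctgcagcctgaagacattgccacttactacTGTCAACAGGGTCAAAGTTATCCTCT
Igkv4-55: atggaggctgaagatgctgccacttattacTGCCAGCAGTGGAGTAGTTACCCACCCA
Igkv5-48: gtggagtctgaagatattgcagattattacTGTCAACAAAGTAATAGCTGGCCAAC
Igkv12-89: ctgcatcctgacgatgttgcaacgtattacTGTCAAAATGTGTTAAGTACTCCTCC
Igkv3-1: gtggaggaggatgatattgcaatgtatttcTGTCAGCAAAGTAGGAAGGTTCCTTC
Igkv12-44: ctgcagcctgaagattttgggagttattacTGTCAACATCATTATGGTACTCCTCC

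The 5 genes that led in the young libraries were:
Igkv14-126: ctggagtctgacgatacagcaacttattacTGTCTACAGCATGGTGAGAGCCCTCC
Igkv3-2: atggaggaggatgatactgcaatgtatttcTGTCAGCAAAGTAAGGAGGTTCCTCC
Igkv19-93: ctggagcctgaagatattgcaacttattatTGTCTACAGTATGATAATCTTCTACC
Igkv6-32: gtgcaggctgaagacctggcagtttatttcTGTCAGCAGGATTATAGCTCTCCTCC
Igkv5-45: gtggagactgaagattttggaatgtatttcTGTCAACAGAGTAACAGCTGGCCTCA

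The stretch in capitals, cysteine codon included, was 26 bases long in 10 of these 11 genes and 28 bases in Igkv4-55. The leading gene of each age can be compared over the whole V exon, with the same part in capitals. The exon of Igkv15-103 lies at chr6:68437628-68437925 on the plus strand, and that of Igkv14-126 at chr6:67896345-67896642 on the plus strand.
Igkv15-103: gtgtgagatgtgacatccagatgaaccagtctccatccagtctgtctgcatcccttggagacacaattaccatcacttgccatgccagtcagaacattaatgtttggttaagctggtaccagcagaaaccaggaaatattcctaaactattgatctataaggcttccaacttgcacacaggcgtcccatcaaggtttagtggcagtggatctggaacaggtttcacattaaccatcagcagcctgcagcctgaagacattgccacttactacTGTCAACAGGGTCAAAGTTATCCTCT
Igkv14-126: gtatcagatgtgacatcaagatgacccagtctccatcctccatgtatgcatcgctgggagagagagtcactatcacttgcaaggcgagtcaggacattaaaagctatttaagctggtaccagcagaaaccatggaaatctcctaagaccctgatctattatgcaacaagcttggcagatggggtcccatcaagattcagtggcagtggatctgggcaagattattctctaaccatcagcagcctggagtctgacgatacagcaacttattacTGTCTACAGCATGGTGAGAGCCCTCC

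Of the 160 Igkv genes, 85 had 0 counts in all 4 libraries and 75 had a count in at least 1 library. Igkv rows together held 2519 and 2216 counts in aged replicates 1 and 2 and 1526 and 848 counts in young replicates 1 and 2, out of library totals between 20159129 and 34278754. In CPM, the count scaled by the TMM-adjusted library total, the sum was 100.4 and 101.9 in the aged libraries and 44.1 and 42.5 in the young libraries. Both aged libraries lay above both young ones, and the mean was 2.33 times as high in aged (101 ± 1.07 against 43.3 ± 1.15 CPM, SD, n = 2 per group). This is a log2 ratio of 1.22, which was 2.72 without Igkv14-126 and 1.58 without the 14 genes that passed the test. Igkc, which every kappa transcript carries, stood at 193 and 191 CPM in aged libraries, against 80.7 and 77.6 CPM in young ones. Igkc rose by 1.28 ± 0.064 on the log2 scale (SE, n = 2 per group; edgeR adjusted p = 1.13e-06). The number of Igkv counts per Igkc count was 0.519 and 0.533 in aged libraries, against 0.547 and 0.548 in young ones, so the V and constant counts kept nearly the same proportion in all 4 libraries. The 5 Igkj rows, whose exons are very short, held between 0 and 3 counts per library in all.

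**Figure D1:**
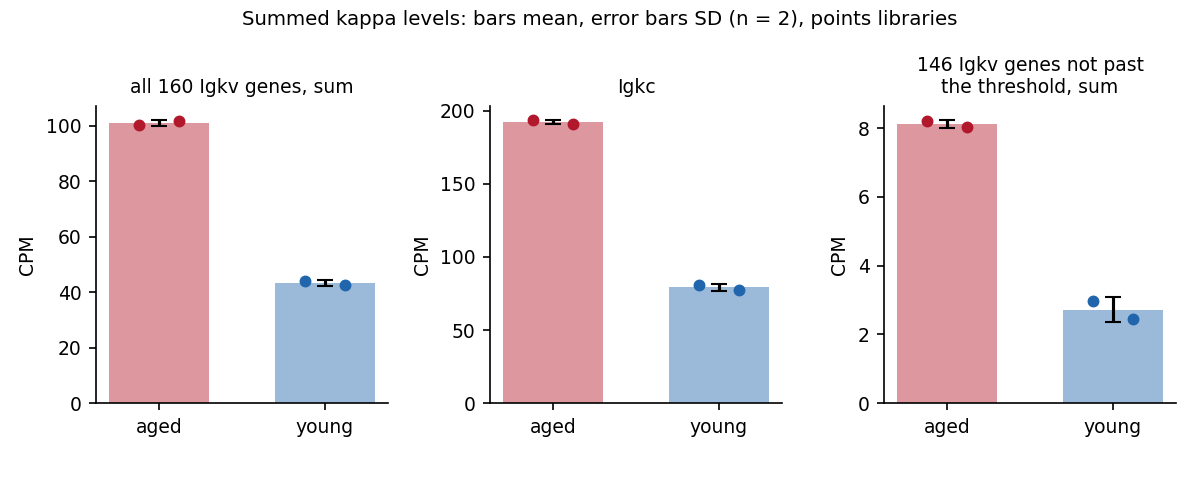
Kappa levels by age in CPM (vertical axes, linear, from 0): the sum of all 160 Igkv genes, Igkc, and the sum of the 146 Igkv genes that did not pass the threshold. Bars are means, error bars SD (n = 2) and points libraries; the aged libraries lie above the young ones in each panel.

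Usage, the share of a library's Igkv counts taken by a gene, was concentrated in both ages and differed in which genes it fell on. In the aged libraries the 6 most used genes held 86.7% and 87.5% of the Igkv counts, and they were the same 6 genes in both: Igkv15-103, Igkv4-55, Igkv5-48, Igkv12-89, Igkv3-1 and Igkv12-44. In the young libraries the 5 most used genes held 92.5% and 92.8%, and these too were the same 5 in both: Igkv14-126, Igkv3-2, Igkv19-93, Igkv6-32 and Igkv5-45. None of the 6 was among the 5. Igkv14-126 alone took 61.7% (95% Wilson interval 59.2 to 64.1) and 67.9% (64.7 to 71.0) of the young Igkv counts, against 0.715% and 0.271% in the aged libraries. Igkv15-103 took 25.5% (23.9 to 27.3) and 23.6% (21.8 to 25.4) of the aged Igkv counts and had 0 counts in both young libraries, which allows a share of up to 0.197% and 0.354% there. Intervals and these limits cover counting error only, since reads of amplified libraries are not independent molecules.

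**Figure D2:**
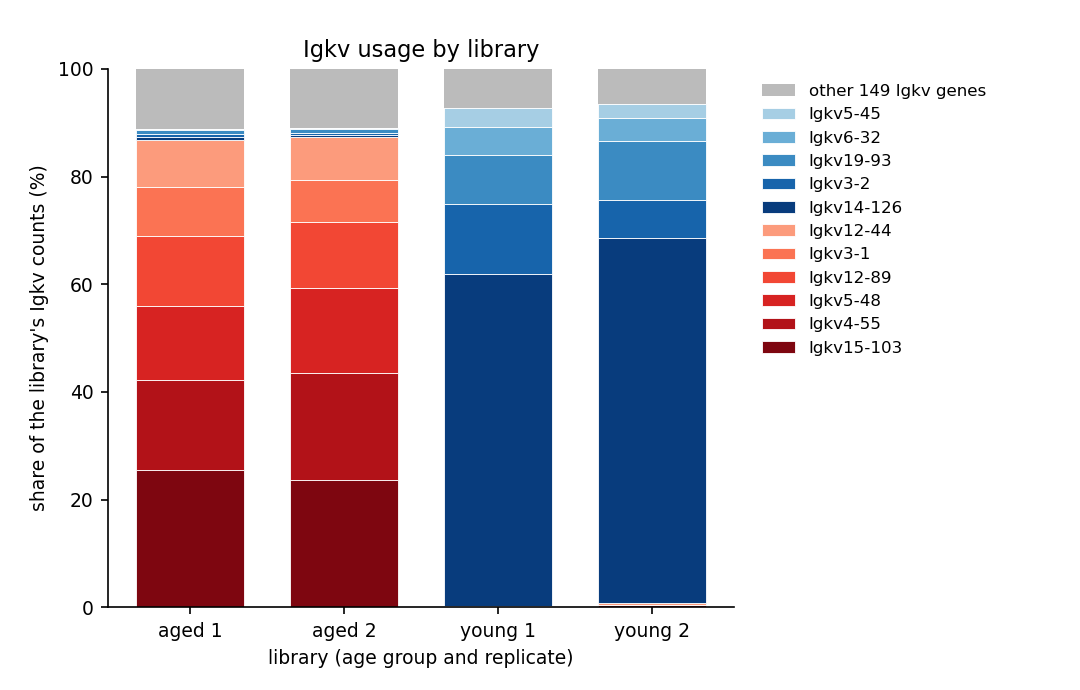
Share of each library's Igkv counts (vertical axis, percent) taken by the 11 leading Igkv genes and by the other 149, for the 4 libraries (horizontal axis). Red shades are genes that led in the aged libraries and blue shades genes that led in the young ones; Igkv14-126 fills 61.7% and 67.9% of the young bars.

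The evenness of usage followed the same split. The inverse Simpson number, which is the number of equally used genes that would give the same concentration, was 6.88 and 6.74 in aged libraries, against 2.44 and 2.08 in young ones. Without Igkv14-126 the mean was 5.13 in the young libraries. The number of Igkv genes with at least 1 count was 59 and 56 in aged libraries, against 46 and 38 in young ones. At a common depth of 848 Igkv counts the expected number was 45.1 and 42.7 in aged libraries, against 37.3 and 38.0 in young ones, which is more in aged by a narrower margin. Without Igkv14-126 the expected number was 26.9 in aged and 35.3 in young, the reverse order. That removal lowers the common depth and takes out the leading gene of the young libraries alone. The leading aged genes stay in, so these 2 numbers do not compare the ages on equal terms. Libraries of the same age shared most of their usage: summing the smaller of both shares over all Igkv genes gave 92.0% for the aged pair and 88.4% for the young pair. For pairs of an aged and a young library the same sum lay between 5.38% and 6.80%. Over all genes the counts of the replicates differed by more than sampling noise (chi-square per degree of freedom 9.79 for the aged and 12.7 for the young pair), so neither pair was counted as a single library.

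In the test across all genes, 15 of the 160 Igkv genes had enough counts to be tested, and 14 of these changed between the ages, 9 higher and 5 lower in aged. Over all 12035 genes tested 5.77% changed, 2.87% higher and 2.89% lower. All 15 had groups that do not overlap, as did 51.6% of all genes tested. A gene that entered the test only through the age in which it was high was likely to differ for that reason alone. The count among tested members is therefore a description, and the 145 untested genes are not part of it. The median log2 change of the 15 was 3.93, and the median over all genes tested was -0.0044. The same entry rule shapes the median of the 15, which include genes that rose and genes that fell. It is therefore a description too, and not a shift of the Igkv genes as a set. The 14 genes belonged to 8 of the 20 families, and all 14 are annotated as V genes with a coding V exon. Their annotated exons covered 338 to 401 bases, so shares scaled by length stayed close to the shares of counts: 25.02% and 23.1% for Igkv15-103 in the aged and 62.5% and 68.5% for Igkv14-126 in the young libraries.

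**Figure D3:**
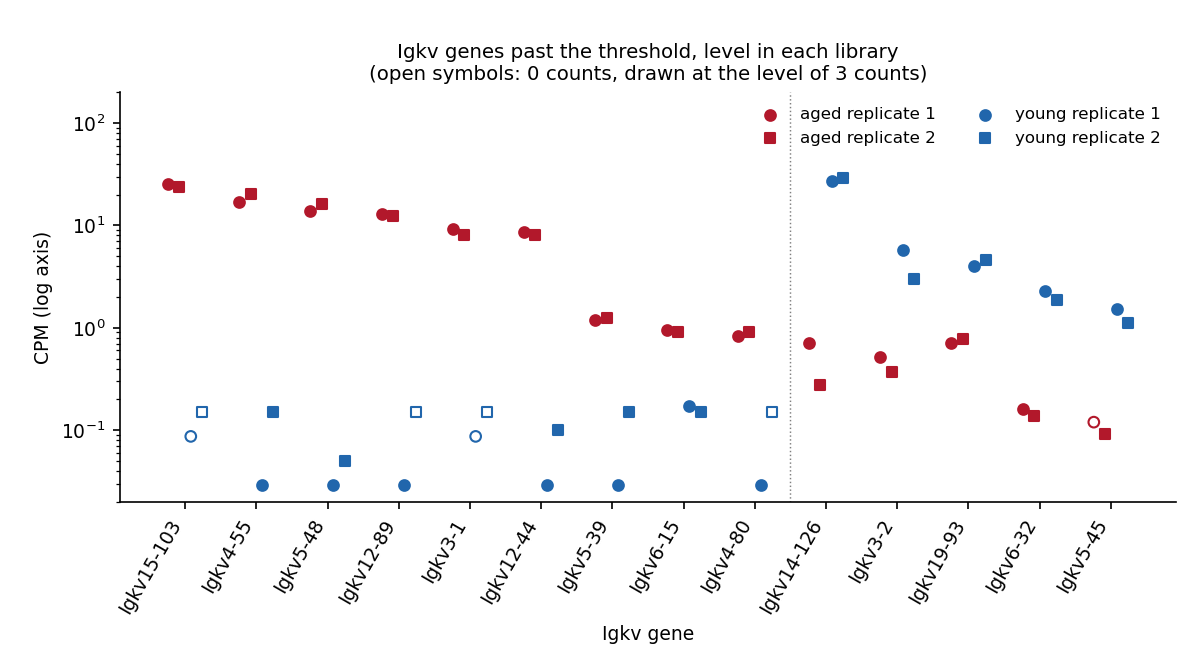
Level in CPM (vertical axis, log scale) of the 14 Igkv genes that changed, in each of the 4 libraries. The 9 genes left of the dotted line were higher in aged and the 5 right of it lower; open symbols are counts of 0, drawn at the level of 3 counts, and Igkv15-103 at 25.6 and 24.01 CPM in aged against 0 counts in young is the clearest case.

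Among the genes higher in aged, Igkv15-103 (ENSMUSG00000076523.2, chr6:68437440-68437925, plus strand) had 643 and 522 counts in aged libraries, against 0 and 0 in young ones, or 25.6 and 24.01 CPM against none. With 3 counts over both young libraries as the limit, it was at least 452-fold higher in aged (edgeR adjusted p = 3.12e-07). Igkv3-1 (chr6:70703578-70704177, plus strand) had 233 and 177 counts in aged libraries, and likewise 0 and 0 in young ones, at least 159-fold higher (edgeR adjusted p = 8.12e-06). These were the 2 leading aged genes with no young count at all.

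Igkv4-55 (chr6:69607275-69607828, minus strand) had 422 and 442 counts in aged libraries, against 1 and 3 in young ones, a log2 change of 7.88 ± 0.36 (edgeR adjusted p = 5.59e-07) that was 6.90 without young replicate 1 and 9.11 without young replicate 2. Igkv5-48 (chr6:69726573-69727138, minus strand) had 346 and 350 against 1 and 1, a ratio of 405 with a 95% counting interval from 112 to 3351 (edgeR adjusted p = 4.20e-07). Igkv12-89 (chr6:68834846-68835307, minus strand) had 325 and 270 against 1 and 0 counts, a ratio of 693 with a counting interval from 124 upward (edgeR adjusted p = 6.32e-07). In all 3 the aged libraries lay far above the young ones, and the few young counts make the size of the ratio imprecise. Igkv12-44 (chr6:69814631-69815154, minus strand) had 216 and 177 against 1 and 2 counts, a ratio of 152 with an interval from 51.8 to 743 (edgeR adjusted p = 5.12e-06). By length-scaled share the order in the aged libraries was Igkv15-103, then Igkv4-55, then Igkv5-48 and Igkv12-89, then Igkv3-1 and Igkv12-44. Igkv4-55 (16.2% and 19.4%) lay above Igkv5-48 (14.02% and 16.1%) without overlap, by a narrow margin. Igkv5-48 and Igkv12-89 did not separate in aged replicate 1 (14.02% and 14.03%) but did in aged replicate 2 (16.1% and 13.3%). Igkv3-1 (9.47% and 8.18%) and Igkv12-44 (7.86% and 7.33%) were close without overlapping.

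The other 3 genes higher in aged stood near 1 CPM. Igkv5-39 had 30 and 27 counts in aged libraries, against 1 and 3 in young ones (log2 change 3.93 ± 0.74, edgeR adjusted p = 0.0128). Its log2 change was 2.97 without young replicate 1 and 5.19 without young replicate 2. Igkv4-80 had 21 and 20 against 1 and 0 counts, a ratio of 47.7 with a counting interval from 8.10 to 1930 (edgeR adjusted p = 0.0101). Igkv6-15 had 24 and 20 against 6 and 3 counts (2.48 ± 0.61, edgeR adjusted p = 0.0419). These calls were the least firm: without young replicate 1, the deepest library, the adjusted p was 0.187 for Igkv5-39, 0.109 for Igkv4-80 and 0.302 for Igkv6-15. Without young replicate 2 it was 0.0668 for Igkv4-80 and 0.205 for Igkv6-15, and without aged replicates 1 and 2 in turn 0.124 and 0.132 for Igkv6-15. The tested gene that did not pass was Igkv1-110, with 18 and 11 against 8 and 1 counts (1.91 ± 0.74, edgeR adjusted p = 0.166).

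Among the genes lower in aged, Igkv14-126 (ENSMUSG00000094345.2, chr6:67896172-67896642, plus strand) had 941 and 576 counts in young libraries, against 18 and 6 in aged ones. In CPM it fell from 28.1 ± 1.17 in young to 0.497 ± 0.312 in aged (SD, n = 2 per group). The log2 change was -5.76 ± 0.25 (edgeR adjusted p = 4.20e-07), and it was -6.64 without aged replicate 1. It was the most abundant Igkv gene of the series by mean share, and by itself it held more CPM in each young library than all other Igkv genes together.

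Igkv3-2 (chr6:70698449-70699067, plus strand) had 199 and 60 counts in young libraries, against 13 and 8 in aged ones (log2 change -3.31 ± 0.44, edgeR adjusted p = 0.00189). Its share differed between the young libraries themselves, 13.0% (11.4 to 14.8) against 7.08% (5.54 to 9.002), and the intervals did not overlap. Igkv19-93 (chr6:68736297-68736780, minus strand) had 138 and 92 against 18 and 17 counts (-2.51 ± 0.32, edgeR adjusted p = 0.00148). It was the least exclusive of the leading genes, with 0.717 and 0.782 CPM left in the aged libraries against 3.99 and 4.61 CPM in the young. Igkv6-32 (chr6:70074024-70074603, minus strand) had 80 and 37 counts in young libraries, against 4 and 3 in aged ones (-3.77 ± 0.54, edgeR adjusted p = 0.00295). Igkv5-45 (chr6:69775750-69776344, minus strand) had 53 and 22 against 0 and 2 counts, 32.2 times as high in young with a counting interval from 8.61 to 271 (edgeR adjusted p = 0.00922). Without young replicate 1, Igkv6-32 (0.0541) and Igkv5-45 (0.117) did not pass. The order by length-scaled share was not the same in both young libraries: Igkv3-2 came before Igkv19-93 in replicate 1 (12.5% and 9.05%) and after it in replicate 2 (6.76% and 10.8%).

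In families 3, 5 and 6, genes of the same family changed in opposite directions. Family 3 held the neighbours Igkv3-1 and Igkv3-2, which lie 22.3 and 27.4 kb from Igkc and whose V exons are 92.9% identical; Igkv3-1 was read in aged libraries alone and Igkv3-2 was lower in aged. As a family they took 10.3% and 8.48% of the aged and 13.4% and 7.90% of the young Igkv counts, and these ranges overlapped between the ages. Family 5 likewise held Igkv5-48 and Igkv5-39, higher in aged, and Igkv5-45, lower in aged; the V exons of Igkv5-45 and Igkv5-39 are 91.6% identical. Family 6 held Igkv6-15, higher in aged, and Igkv6-32, lower in aged. In family 12 both genes that changed, Igkv12-89 and Igkv12-44, were higher in aged (84.6% identical), and the family took 21.8% and 20.4% of the aged against 0.459% and 0.825% of the young Igkv counts. Family 4, the largest with 33 genes, took 19.4% and 22.6% against 1.90% and 1.42%, most of it in aged from Igkv4-55 (16.8% and 19.9%). Over all pairs of the 14 genes the V exons were between 62.0% and 92.9% identical.

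How near copies were counted bears on single values, since the handling of reads that match several genes is not given in the sources used here. In Igkv15-103, Igkv5-48, Igkv12-89, Igkv14-126, Igkv19-93, Igkv6-32 and Igkv5-39 every stretch of 50 bases of the annotated transcripts occurred in no other Igkv gene. The share of such stretches was 46.7% in Igkv4-55, 49.1% in Igkv5-45, 69.3% in Igkv12-44, 77.6% in Igkv4-80, 78.7% in Igkv3-2, 84.2% in Igkv6-15 and 85.8% in Igkv3-1, so their counts are less certain. Igkv3-1 and Igkv3-2 are each other's nearest copy, and both had many counts, at opposite ages. Other near copies had few counts. Igkv4-68, 95.4% identical to Igkv4-55 over the V exon, had 1 and 3 counts in aged libraries, against 0 and 0 in young ones. Igkv12-41, 95.6% identical to Igkv12-44, had 6 and 1 against 0 and 2 counts. Igkv5-43, 99.0% identical to Igkv5-45, had 9 and 6 counts in aged libraries, against 3 and 2 in young ones, which is not the direction of Igkv5-45.

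Along the locus the genes that changed were spread from the end next to Igkc to 2.83 Mb away, within a set of Igkv genes that reaches 3.17 Mb. Igkv genes lie in both orientations, and those on the strand of Igkc are joined by deletion of the DNA between, the others by inversion. Of the 14 genes 4 lie on the plus strand, that of Igkc, and 10 on the minus strand, against 75 and 85 of all 160. Plus-strand genes took 39.5% and 35.5% of the aged and 77.8% and 77.1% of the young Igkv counts. Igkv14-126 is itself a plus-strand gene. Among the genes that did not pass the threshold, plus-strand genes took 43.2% and 41.7% in aged libraries, against 45.6% and 36.7% in young ones, where the ages overlapped. By gene order, the 54 genes farthest from Igkc took 30.2% and 28.0% of the aged and 73.3% and 79.7% of the young counts. The 53 genes in the middle took 32.3% and 34.8% against 2.42% and 2.48%. Igkv14-126 lies in the farthest group, so single genes shape these shares. Among the genes that did not pass, the order of the ages was reversed in both groups. The farthest group took 39.8% and 43.4% of their counts in aged libraries, against 38.8% and 16.3% in young ones. For the middle group these shares were 22.3% and 22.3% against 33.0% and 36.7%. A shift of usage along the locus is not shown by these values.

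**Figure D4:**
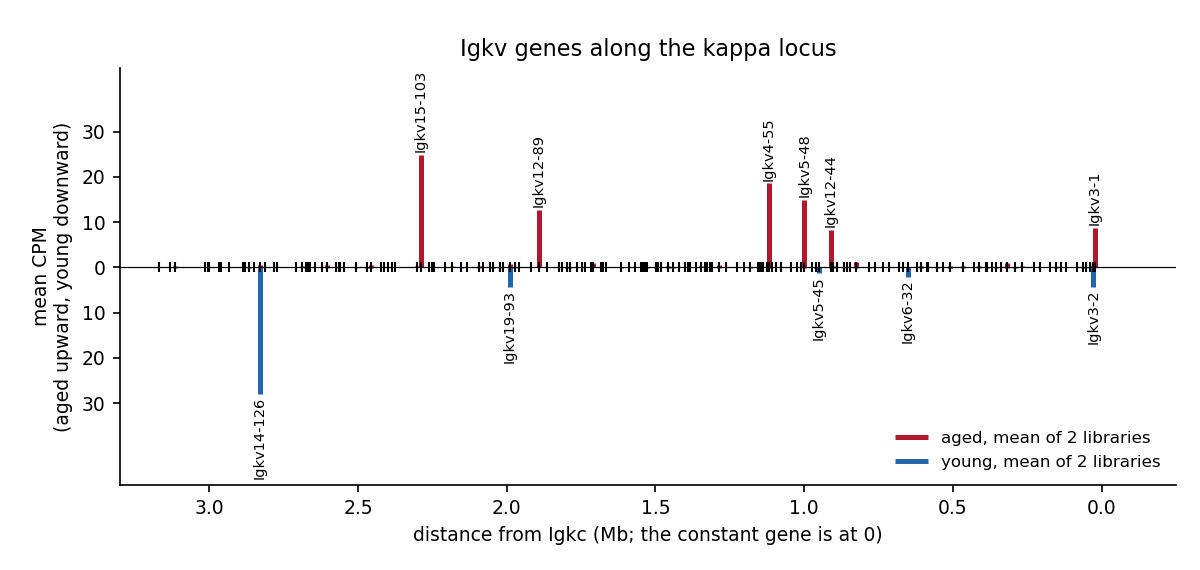
Mean level of each of the 160 Igkv genes in CPM (vertical axis; aged drawn upward, young downward, n = 2 per group) by distance from Igkc (horizontal axis, Mb). Ticks on the zero line mark the genes; the 6 tall aged lines and the young line of Igkv14-126 stand at separate places, with Igkv3-1 and Igkv3-2 side by side next to Igkc.

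Below the leading genes lay a broad, thin background of Igkv reads. The 146 Igkv genes that did not pass the threshold summed to 206 and 175 counts in aged libraries, against 103 and 49 counts in young ones, or 8.21 and 8.05 CPM against 2.98 and 2.46 CPM. Both aged libraries were above both young ones, and the ratio of the means was 2.99. Of these genes 61 had a count in some library, 45 with the higher mean CPM in aged and 16 in young, and the highest count of any was 18. Their usage was far more even than that of the whole set, with inverse Simpson numbers of 28.2 and 24.5 in aged libraries, against 24.7 and 18.9 in young ones. It was also more alike across ages: the summed smaller shares were between 35.8% and 54.0% for pairs across ages, 67.6% for the aged pair and 48.2% for the young pair, all limited by the few counts. Pseudogenes had 6 counts in all, over 3 of the 60 genes. Since these genes were set apart by the result of the test, the values are a description.

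The other light chain and the genes that B cells and plasma cells need were read from lists. The lambda constant genes, which serve B cells that do not use kappa, summed to 4.26 and 3.68 CPM in aged libraries, against 2.52 and 2.36 CPM in young ones. None of 4 tested lambda genes passed with edgeR (median log2 change 0.86), DESeq2 or limma-voom, and 1 was higher at an unadjusted edgeR p under 0.05. Of 16 tested genes of the B cell receptor and B cell identity 7 rose and none fell with edgeR (median 0.90), and the list summed to between 1065 and 1074 CPM in aged libraries, against 801 and 819 CPM in young ones. Ighm, the heavy chain of IgM, made up most of that, at 841 and 837 against 608 and 622 CPM (0.45 ± 0.051, edgeR adjusted p = 0.000703). Ms4a1, which encodes CD20, rose by 1.26 ± 0.27 (edgeR adjusted p = 0.0251), Ighd, the heavy chain of IgD, by 1.37 ± 0.27 (0.0148) and Cd79b, a signalling chain of the receptor, by 0.51 ± 0.11 (0.025). Its partner Cd79a gave 0.83 ± 0.24 and did not pass (edgeR adjusted p = 0.0724). At an unadjusted edgeR p under 0.05, 11 genes of the list were higher and 0 lower, and the share of all genes under that cut was not counted. DESeq2 and limma-voom called 5 and 7 higher and none lower. Over all genes, edgeR called 346 of 12035 higher and limma-voom 394 of 12035. DESeq2 called 319 higher among 17314 genes with a count, but not all of these were given an adjusted p. The share called by DESeq2 is therefore not given. Several calls rested on single libraries. Without young replicate 1 the edgeR adjusted p was 0.143 for Ms4a1, 0.108 for Ighd and 0.154 for Cd79b. Without young replicate 2 it was 0.0717 for Ms4a1 and 0.0843 for Cd79b. Without aged replicate 2 it was 0.0743 for Ms4a1, 0.0620 for Ighd and 0.0755 for Cd79b. Ighm passed in every setting run. No gene of this list was at 0 in all libraries, and its part in the Igkv values was not tested.

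Plasma cell genes changed in 2 of 10 tested cases with edgeR, both higher in aged (median 0.34), where 2.87% of all genes tested were higher. DESeq2 called 2 higher and limma-voom 4, and neither called any lower. At an unadjusted edgeR p under 0.05, 6 genes of the list were higher and 0 lower, and the share of all genes under that cut was not counted. The list summed to between 821 and 832 CPM in the aged and to 710 and 711 CPM in the young libraries. Most of that sum was Xbp1 (449 and 435 CPM in aged, 385 and 386 CPM in young) and Txndc5 (278 and 278 against 262 and 263 CPM). Neither of these 2 genes passed (edgeR adjusted p = 0.0580 and 0.418). The largest change was that of Igha, the heavy chain of IgA, with 556 and 536 counts in aged libraries, against 0 and 1 in young ones. That is a ratio of 1271 with a 95% counting interval from 228 upward (edgeR adjusted p = 2.33e-07), the same near absence in young as for the leading aged Igkv genes. Sdc1, which encodes the plasma cell surface protein CD138, rose by 1.25 ± 0.28 (edgeR adjusted p = 0.0302), but did not pass without young replicate 1 (0.224) or aged replicate 2 (0.0924). Igha passed in every setting run. Jchain, the chain that links IgM and IgA into polymers, stood at 29.3 and 28.0 CPM in aged libraries, against 22.9 and 22.1 CPM in young ones and did not pass (0.34 ± 0.10, edgeR adjusted p = 0.0782). The IgG constant genes of the list had at most 8 counts in any library. Whether plasma cells in the sorted samples carried the Igkv reads was not tested.

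Counts of Rag1 and of the surrogate light chain genes were few. Of 6 tested genes of the surrogate light chain and pre-B list none passed with edgeR (median -0.15), DESeq2 or limma-voom, and 0 had an unadjusted edgeR p under 0.05. Rag1, Igll1 and Vpreb1 had too few counts to be among these 6, so that result does not cover them. Rag1, a subunit of the recombinase, had 9 and 3 counts in aged libraries, against 4 and 16 in young ones. Igll1 and Vpreb1, which form the surrogate light chain of pre-B cells, had 10 and 2 against 4 and 9 counts and 3 and 4 against 28 and 3 counts, with overlapping groups in each. Of 10 tested end-joining genes Atm, a kinase of the DNA break response, fell (-0.78 ± 0.16, edgeR adjusted p = 0.0221). Among 14 factors known to act at the kappa locus Pou2f2 (0.71 ± 0.13, edgeR adjusted p = 0.0127), which binds the octamer of V promoters, and Spi1 (0.30 ± 0.053, 0.00912) rose and the cohesin gene Rad21 fell (-0.52 ± 0.090, 0.00864). Without young replicate 1 the edgeR adjusted p was 0.0647 for Pou2f2, 0.0751 for Spi1 and 0.108 for Atm, and without aged replicate 2 it was 0.0509 for Atm. Monocytes express these factors too.

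The 10 monocyte genes summed to between 42425 and 44696 CPM, with 3 higher and 2 lower in aged and none at 0. Most of that was Lyz2, which neutrophils also express, and the other 9 summed to between 9281 and 9878 CPM. The 10 neutrophil genes of the lists summed to between 32425 and 33672 CPM, 2 higher and 3 lower in aged. Transcripts of the neutrophil list were thus abundant beside those of the monocyte list in all 4 libraries. S100a8 (6075 to 8546 CPM) and S100a9 (7925 to 9189 CPM) made up a large part of that sum. No gene was taken out of it for expression in monocytes, so the sums of the lists do not measure the cells on equal terms. For 12 T and NK cell genes the sum was 47.7 to 48.6 CPM in the aged and 51.4 to 56.3 CPM in the young libraries, with none of 11 tested passing with edgeR, DESeq2 or limma-voom (1 higher and 1 lower at an unadjusted edgeR p under 0.05), and 8 erythroid genes summed to 347 to 392 CPM with 1 higher. Igkv reads made up 0.0101% of the counts in each aged library and 0.00445% and 0.00421% in the young ones.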

How the data were processed

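Polyadenylated RNA of sorted bone marrow monocytes was sequenced as strand-specific libraries, per the labels' protocols. For each library the authors deposited raw read counts by gene symbol. Per the submitters' processing notes, the build was mm10 and the tools were STAR 2.5.3, HTSeq, cutadapt and DESeq2, with no roles stated. The annotation, strand setting and treatment of reads matching several genes were not given in the sources used here. Rows are therefore uncertain for near-identical V genes. Each table held 31017 symbols and no unassigned rows.

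Genes passing filterByExpr (minimum count 10, minimum total 15) were scaled by TMM and tested two-sided, aged against young over all 4 libraries, by quasi-likelihood in edgeR 4.0.16 (R 4.3.3), Benjamini-Hochberg adjusted over all genes tested, threshold 0.05. The standard error is the log2 change over the square root of F. Where an age had 0 counts, a limit of 3 counts over both libraries was used; where it had 1 to 3, the ratio of summed counts has an exact 95% interval. Sums, shares and evenness over Igkv genes were not tested. Models and sequences came from GENCODE M21; all 160 symbols matched. V exon identity is from pairwise global alignment.

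Named are the Igkv genes past the threshold (up to 15 with the smallest p), the 10 with the highest mean share, the leader of each library and, from the lists, 11 genes named in any case, of which 1 is not reported here, plus up to 3 per list and direction. The genes and lists were chosen with earlier results of these data known. Alternatives were other scalings and filters, DESeq2 1.42.0, limma-voom (limma 3.58.1), leaving out each library, and a block on the replicate number. The edgeR procedure was tested on simulated data.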

Additional observations from a re-analysis of the deposited data

How the results depend on the processing

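The 14 Igkv calls were the same 14 genes under RLE, upper-quartile and library-size scaling, with library sizes without immunoglobulin genes, with no low-count filter and with limma-voom. With the replicate number as a block the same 14 passed, among 1817 genes called over all against 694 without it; the deviations of same-numbered libraries correlated at 0.094 across genes, and the labels do not say that the number pairs them. With a mean of at least 1 CPM required, 10 of the 14 were tested and all 10 passed. DESeq2 gave an adjusted p for 10 Igkv genes, all of which passed, and none for the others. A gene can enter either set of 10 through the age in which it is high, so both counts are descriptions. With each library left out in turn, 6 to 8 Igkv genes were higher and 3 to 5 lower; the 3 was reached without young replicate 1, where 9 of the 14 passed. In that setting 197 genes passed over all. No log2 change of the 14 genes changed sign in the settings run.

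The log2 ratio of the summed Igkv level, 1.22, lay between 1.20 and 1.25 when a library was omitted, and was 2.72 without Igkv14-126 and 1.58 without the 14 genes that changed, an alternative chosen after seeing the data. The mean share of Igkv15-103 in aged was 26.7% over genes with a mean of at least 10 counts, which have a smaller total. The inverse Simpson number in young was 5.13 without Igkv14-126. The expected number of genes at the common depth, 43.9 in aged and 37.7 in young, became 16.3 and 7.94 when at least 4 counts were asked for. Without Igkv14-126 it became 26.9 and 35.3, the reverse order of the ages. That removal lowers the common depth and takes out the leading gene of the young libraries alone, so it does not compare the ages on equal terms.

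Of the 97 other listed genes tested 17 (17.5%) were higher and 7 (7.22%) lower, against 2.87% and 2.89% of all genes tested. Their numbers, chosen for this check after seeing the data, became 27 and 11 with no low-count filter, 31 and 11 with the replicate number as a block, and 7 to 19 and 5 to 8 with each library left out (7 higher without young replicate 1). Depth limits the rest: 85 Igkv genes had no count, and 3 counts correspond to 0.0868 to 0.150 CPM.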

Other observations

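Single light chain genes outside the kappa V set varied between libraries of the same age; they were chosen after their values were seen. Vpreb1 had 28 counts in young replicate 1 and 3 in young replicate 2. Iglv1, a lambda variable gene, had 52 and 18 counts in aged libraries, against 19 and 11 in young ones, and the lambda variable genes Iglv2 and Iglv3 had at most 14 counts in any library. None of these 3 lambda variable genes was at 0 in any library.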
